A study of Homo sapiens with 8 samples.

Results

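SAT1 and 9 further genes of polyamine metabolism were followed across a melphalan experiment in a pair of human multiple myeloma lines. The set was SAT1, ODC1, OAZ1, OAZ2, AZIN1, AMD1, SRM, SMS, SMOX and PAOX, 10 of the 18417 genes measured, chosen by name from the pathway around SAT1. Each was represented by the transcript cluster (the array's unit for a gene) that the platform annotation assigns to that symbol alone, and each of the 10 had exactly 1 such cluster. The compared groups were U266/LR7, the melphalan-resistant line, and U266/s, its parent. Each line received melphalan (100 µM, a DNA-alkylating drug), oligonucleotide inhibitors against miR-221 and miR-222, a pair of small regulatory RNAs (100 nM), both, or a negative control oligonucleotide without drug, and RNA was taken at 12 h. Every one of these 8 conditions had 1 array and no replicate. The sources used here do not say how U266/LR7 was derived or whether it is 1 clone. The arrays with melphalan alone are tagged as not transfected, whereas the protocol text reads as if their cells had received the control oligonucleotide, so the melphalan pairs without inhibitors, and the inhibitor pairs with melphalan, may differ in transfection too.

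Polyamines (putrescine, spermidine and spermine) are small cations that bind nucleic acids and are needed for growth and translation. ODC1, AMD1, SRM and SMS build them up, antizymes restrain ODC1 and polyamine uptake, and SAT1, PAOX and SMOX break the higher polyamines down again. Proliferating plasma cell tumours, like other MYC-driven tumours, are known for high polyamine synthesis. SAT1 was picked for its rise with melphalan averaged over both lines (1.82 log2 units), so its changes with melphalan are given as a description without a test. The other contrasts of SAT1, and all contrasts of the remaining 9 genes, were tested with limma over all 18417 genes, and "called" means a Benjamini-Hochberg adjusted p under 0.05. Signals are log2 values, so a difference of 1 is a doubling, and levels of different genes are not compared with each other.

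Mean signals of the 9 plasma cell markers ran from 7.42 (CD38) to 12.27 (IRF4). Those of 3 B cell markers ran from 4.39 (MS4A1) to 6.68 (PAX5), of 5 myeloid markers from 4.41 (FCGR3A) to 6.77 (CD14), of 5 T and NK cell markers from 5.59 (CD2) to 7.49 (CD8A), and of 6 stromal and epithelial markers from 6.199 (EPCAM) to 8.73 (KRT18). These means pool all 8 arrays, and single markers differed between the lines. EPCAM, for example, read 8.05 and 7.74 in U266/s without melphalan, against 5.46 and 5.36 in U266/LR7 without it. Signal over background was not analysed here, so the marker values do not settle which markers were absent. The interquartile range of signal was 3.25 and 3.34 log2 units on the U266/s arrays with melphalan, against 3.58 to 3.71 on the other 6 arrays. Centring each array on its median moved the median change of all genes there by -0.15.

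SAT1 encodes spermidine/spermine acetyltransferase, the rate-limiting enzyme of polyamine catabolism. Its signal with melphalan was 8.79 and 9.28 in U266/LR7 (without and with inhibitors), against 8.26 and 8.05 without the drug. In U266/s it was 10.12 and 9.92 with melphalan, against 7.54 and 6.99 without. The arrays with and without melphalan did not overlap in either line. The change was 0.88 ± 0.21 log2 units in U266/LR7 (SE, 2 arrays against 2, 1.84-fold) and 2.75 ± 0.21 in U266/s (6.75-fold), and the U266/s value ranked 9 from the top of 18417 genes. Since SAT1 was picked for its rise with melphalan, this rank and the lack of overlap follow in part from the choice and are description only. Within U266/LR7 the matched difference was 0.53 without inhibitors and 1.24 with them, and without the melphalan plus inhibitors array the change there was 0.47. With transfection as a term of 3 levels the SAT1 change with melphalan was 1.15 in U266/LR7 and 3.02 in U266/s.

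The melphalan response of SAT1 differed between the lines. The melphalan by line interaction was -1.87 ± 0.30 (limma adjusted p = 0.00113), meaning a smaller rise in U266/LR7. It kept its sign and call in 16 of 16 alternative settings, from -2.28 to -1.46. With the unequal rises the order of the lines turned. Without melphalan SAT1 was higher in U266/LR7 by 0.89 ± 0.21 (8.15 ± 0.15 against 7.26 ± 0.39, SD, n = 2 arrays each, limma adjusted p = 0.00599). With melphalan it was lower in U266/LR7, at -0.98 ± 0.21 (9.04 ± 0.35 against 10.02 ± 0.14, SD, n = 2 arrays each, limma adjusted p = 0.00246). Each of these line differences rests on 1 array for its call. Without the U266/s inhibitor array the first was 0.60 (adjusted p = 0.13), and without the U266/LR7 melphalan array the second was -0.57 (adjusted p = 0.0687).

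**Figure D1:**
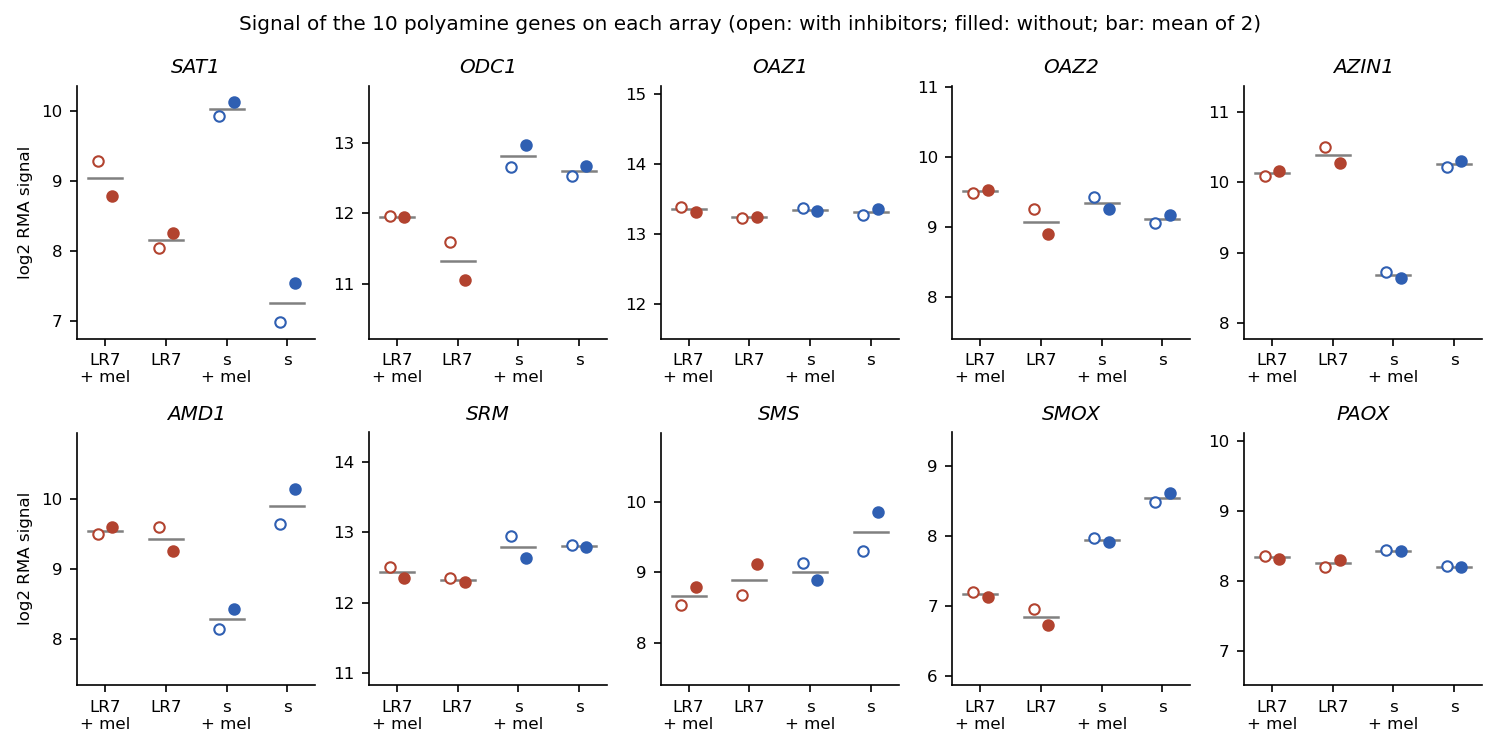
Log2 RMA signal (vertical axis, each panel spanning the same number of log2 units) of the 10 genes on all 8 arrays, grouped by line (LR7 is U266/LR7, s is U266/s) and melphalan (+ mel). Open points are arrays with miR-221 and miR-222 inhibitors, filled points arrays without, and grey bars the mean of the pair. SAT1 stands at 10.12 and 9.92 in melphalan-treated U266/s, above every other array, while AZIN1 and AMD1 have their lowest values there.

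The region before the SAT1 start is shown because SAT1 made the largest rise of the set. The 250 bases upstream of its start, from RefSeq (GRCh38.p14, chrX:23782923-23783172, plus strand), hold a pair of CCAAT boxes, the letters bound by NF-Y, which are in capitals (one of them reads ATTGG, the same box on the opposite strand).
SAT1: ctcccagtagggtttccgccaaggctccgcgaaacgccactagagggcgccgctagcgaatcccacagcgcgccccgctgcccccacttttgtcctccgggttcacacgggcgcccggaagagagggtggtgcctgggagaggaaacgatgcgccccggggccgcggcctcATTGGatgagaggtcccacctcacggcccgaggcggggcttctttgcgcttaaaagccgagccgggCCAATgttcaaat
In windows of 300 bases around annotated starts (250 before, 50 after), CCAAT on either strand was found in 34.61% of all 35116 windows. Neither the E-box CACGTG (7.26% of windows), the AP-1 letters TGANTCA (7.71%), the antioxidant response core TGACNNNGC (13.35%) nor the TATA letters TATAAA (11.53%) occurred in the SAT1 window.

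The 5 genes whose profile over the 8 arrays lay closest to that of SAT1, by root mean square difference after subtracting each gene's own mean, were NR4A2, SNORA60, EFCAB12, IER2 and SCARNA4. Their differences from SAT1 were 0.28, 0.33, 0.35, 0.36 and 0.37 log2 units, against a median of 1.04 over all genes. SAT1's own spread about its mean was also 1.04, which is the difference that an unchanged gene would have. These 5 genes were picked for closeness to SAT1, so their rises with melphalan follow largely from that choice. NR4A2, an orphan nuclear receptor and early response gene, changed by 1.11 in U266/LR7 and 2.79 in U266/s, and IER2, another early response gene, by 0.38 and 1.96. SNORA60 and SCARNA4 are small noncoding RNA genes and changed in U266/s by 2.27 and 2.30.

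AMD1 on the synthetic side and AZIN1 among the regulators fell steeply with melphalan in U266/s. AMD1 encodes the decarboxylase that makes the aminopropyl donor for spermidine and spermine synthesis. Its signal in U266/s was 8.43 and 8.14 with melphalan, against 10.14 and 9.64 without. The change was a 3.04-fold fall (-1.60 ± 0.19, limma adjusted p = 5.09e-05). In U266/LR7 AMD1 read 9.59 and 9.49 with melphalan, against 9.26 and 9.59 without, a change of 0.11 ± 0.19 that was not called (adjusted p = 0.823). AZIN1 encodes antizyme inhibitor, an ODC1 relative without enzyme activity that binds antizyme in place of ODC1. In U266/s it read 8.64 and 8.72 with melphalan, against 10.30 and 10.22 without, and fell 2.99-fold (-1.58 ± 0.14, limma adjusted p = 1.01e-05). In U266/LR7 it read 10.16 and 10.09 with melphalan, against 10.28 and 10.51 without (-0.27 ± 0.14, adjusted p = 0.329).

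Both responses differed between the lines. The interaction was 1.72 ± 0.26 for AMD1 (limma adjusted p = 0.000953) and 1.31 ± 0.20 for AZIN1 (adjusted p = 0.000828), and both were called in 16 of 16 alternative settings, as were both falls in U266/s. Under melphalan AMD1 was higher in U266/LR7 than in U266/s by 1.25 ± 0.19 (adjusted p = 0.000198) and AZIN1 by 1.45 ± 0.14 (adjusted p = 8.74e-06). Without the drug neither line difference was called (-0.47 ± 0.19, adjusted p = 0.0779 for AMD1 and 0.13 ± 0.14, adjusted p = 0.534 for AZIN1). The AMD1 difference was called with quantile normalization (-0.52, adjusted p = 0.0463) and without the U266/LR7 inhibitor array (-0.78, adjusted p = 0.0044).

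SMOX, the oxidase that turns spermine back into spermidine, also responded differently in each line. Its difference between the lines narrowed, from -1.70 without melphalan to -0.77 with it (U266/LR7 minus U266/s). In U266/s its signal was 7.91 and 7.97 with melphalan, against 8.61 and 8.48 without, a fall of -0.60 ± 0.14 (limma adjusted p = 0.00585). U266/LR7 had SMOX signals of 7.13 and 7.21 with melphalan, against 6.73 and 6.95 without, which was not called (0.33 ± 0.14, adjusted p = 0.235). The interaction was 0.93 ± 0.20 (adjusted p = 0.00669) and was called in 16 of 16 alternative settings. The fall in U266/s lost its call without the U266/s control array (-0.48, adjusted p = 0.0867).

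SMS, the spermine synthase gene, read 8.89 and 9.13 in U266/s with melphalan, against 9.85 and 9.30 without. Its fall of -0.57 ± 0.19 was called (limma adjusted p = 0.0291) but rested on single arrays and on the scaling. It was -0.37 without the U266/s control array (adjusted p = 0.313), -0.24 without the U266/s melphalan array (adjusted p = 0.371), -0.39 with quantile normalization (adjusted p = 0.118) and -0.48 with cyclic loess (adjusted p = 0.0588). In U266/LR7 SMS read 8.79 and 8.53 with melphalan, against 9.11 and 8.68 without (-0.23 ± 0.19, adjusted p = 0.576), and its interaction was not called (0.33 ± 0.26, adjusted p = 0.395).

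ODC1, which makes putrescine from ornithine and opens the pathway, was the single gene of the 9 that was called with melphalan in U266/LR7. It read 11.94 and 11.97 with the drug, against 11.05 and 11.59 without, a rise of 0.63 ± 0.17 (limma adjusted p = 0.046). The call held in 7 of 16 alternative settings, and without the U266/LR7 control array the change was 0.29 (adjusted p = 0.234). The call was also lost without either U266/LR7 melphalan array or either U266/s array free of melphalan, at 0.63 each, with adjusted p of 0.225, 0.219, 0.0808 and 0.0803. In U266/s ODC1 read 12.98 and 12.67 with melphalan, against 12.68 and 12.53 without (0.22 ± 0.17, adjusted p = 0.311). Its interaction was not called (0.42 ± 0.23, adjusted p = 0.232), although it was without the U266/LR7 inhibitor array (0.76, adjusted p = 0.00582).

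The antizymes OAZ1 and OAZ2 and the enzyme genes PAOX and SRM were not called by limma with melphalan in either line. OAZ1, the main antizyme, which binds ODC1 and delivers it to the proteasome, stayed between 13.23 and 13.39 on all 8 arrays. Its melphalan change was 0.11 in U266/LR7 (95% interval -0.07 to 0.29) and 0.04 in U266/s (-0.15 to 0.22). OAZ2, a second antizyme, lay between 8.90 and 9.53 (0.43 ± 0.16, adjusted p = 0.136 in U266/LR7 and 0.23 ± 0.16, adjusted p = 0.255 in U266/s). PAOX, the peroxisomal oxidase of acetylated polyamines that acts after SAT1, lay between 8.20 and 8.44, with changes of 0.09 ± 0.14 in U266/LR7 and 0.23 ± 0.14 in U266/s. SRM, the spermidine synthase gene, changed by 0.10 ± 0.10 in U266/LR7 and -0.01 ± 0.10 in U266/s.

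Over the 9 genes other than SAT1, 1 rose and 0 fell in U266/LR7, where 6.62% of all genes were called, 3.02% higher and 3.61% lower. In U266/s 0 rose and 4 fell, where 43.4% of all genes were called, 18.4% higher and 24.9% lower. Of the genes called in U266/s, 3391 of 7984 were higher in the main fit. After centring each array on its median they were 1669 of 7078 (23.6%). The median change of the 9 was 0.11 in U266/LR7 (0.05 over all genes). It was -0.01 in U266/s (0.08 over all genes). Without the U266/s control array 2 of the 4 falls were called, namely AMD1 and AZIN1. The interaction was called positive for 3 of 10 genes and negative for 1, where 23.9% of all genes were called, 17.9% positive and 5.99% negative. Plasma cell markers moved as well, with 0 of 9 higher and 2 lower in U266/LR7, and 1 higher and 5 lower in U266/s. Of 5 myeloid markers 1 was higher in each line, and in U266/s 2 of 5 T and NK cell markers were higher and 1 of 6 stromal and epithelial markers was lower. Their part in the members' changes was not tested. A lower signal in these bulk samples can come from less RNA per cell or from fewer cells with the transcript, and these cannot be told apart.

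**Figure D2:**
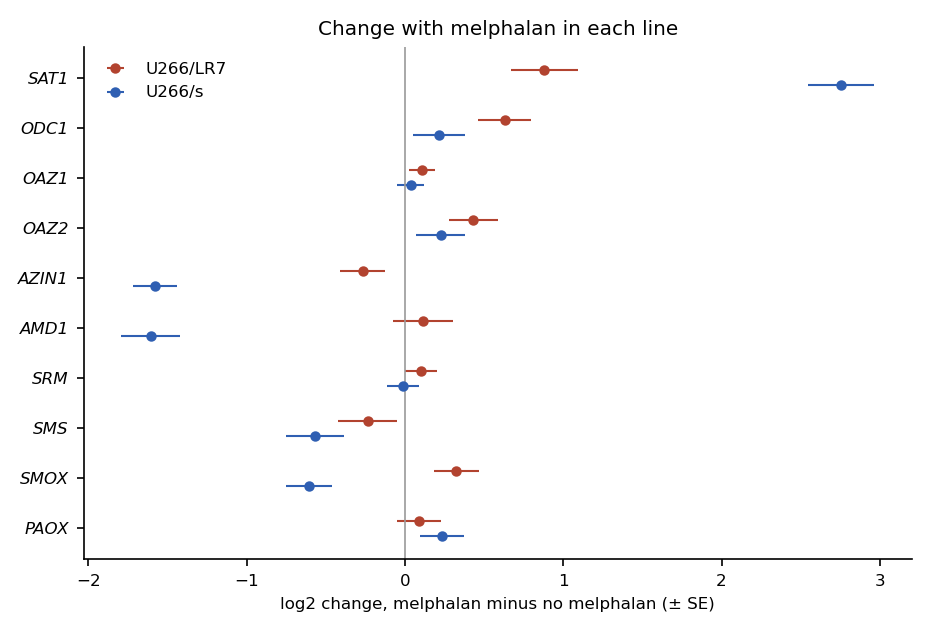
Log2 change with melphalan (horizontal axis, points with SE) of the 10 genes in U266/LR7 (red) and U266/s (blue), each from 2 arrays with against 2 without the drug. SAT1 stands at 0.88 in U266/LR7 and 2.75 in U266/s, whereas AZIN1 (-1.58) and AMD1 (-1.60) stand lowest, both in U266/s.

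The 4 members that fell in U266/s were also the 4 with the longest annotated spans. AMD1 spans 81.1 kb, SMS 54.1 kb, SMOX 38.9 kb and AZIN1 37.9 kb. The remaining 6 span 15.7 kb (OAZ2) or less, down to 3.04 kb for SAT1. The AMD1 span runs from chr6:110814617 to 110895713 and depends on the start used. Further annotated AMD1 starts have windows beginning at 110874534 and 110874535, and from those the gene is shorter than 81.1 kb. Across all protein-coding genes the share called lower in U266/s was 7.32% in the quartile of shortest spans (up to 9.98 kb), 18.3% in the next, 36.6% between 27.3 and 71.1 kb and 45.1% above that. The share called higher ran the other way, at 30.8%, 19.8%, 11.5% and 6.44%. In U266/LR7 the share called lower was 0.545%, 0.355%, 0.899% and 13.6% over the same quartiles. The part of span in their changes was not tested.

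**Figure D3:**
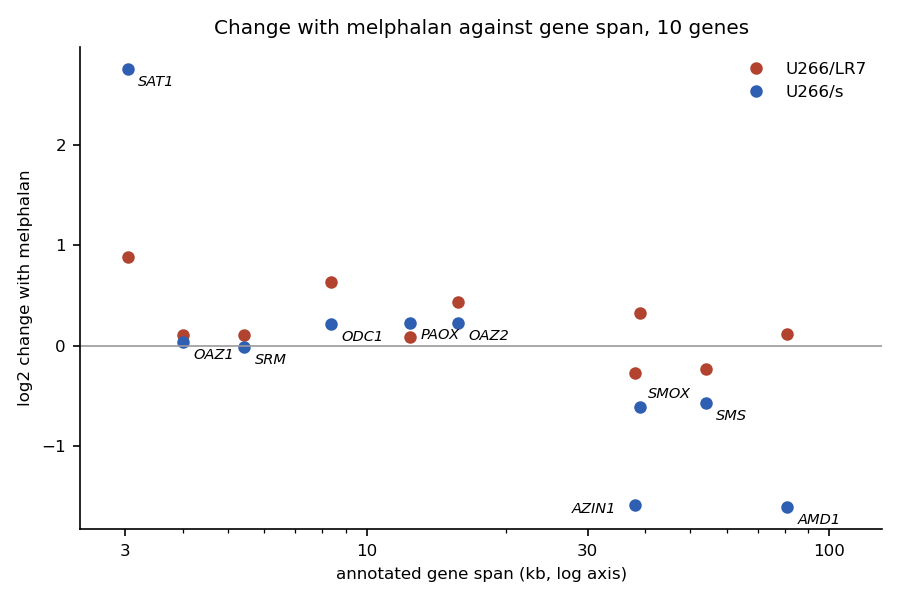
Log2 change with melphalan (vertical axis) of the 10 genes against annotated gene span in kb (horizontal log axis), in U266/LR7 (red) and U266/s (blue). In U266/s the 4 genes of 37.9 kb or more lie between -1.60 and -0.57, and the shortest, SAT1, lies at 2.75.

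Without melphalan the resistant line carried less RNA of several polyamine genes than its parent. ODC1 signals in U266/LR7 were 11.05 and 11.59, with U266/s at 12.68 and 12.53, a difference of -1.28 ± 0.17 (2.43-fold lower, limma adjusted p = 8.93e-05). SMOX signals in U266/LR7 were 6.73 and 6.95, with U266/s at 8.61 and 8.48, the largest line difference of the 10 genes on these arrays (-1.70 ± 0.14, 3.26-fold lower, adjusted p = 3.38e-06). The ODC1 and SMOX differences were both called in 16 of 16 alternative settings. SRM signals in U266/LR7 were 12.30 and 12.35, with U266/s at 12.79 and 12.82 (-0.48 ± 0.10, adjusted p = 0.00279). SMS signals in U266/LR7 were 9.11 and 8.68, with U266/s at 9.85 and 9.30 (-0.68 ± 0.19, adjusted p = 0.0132). Without the U266/s control array neither SRM (-0.41, adjusted p = 0.0568) nor SMS (-0.48, adjusted p = 0.183) was called. SMS also lost its call without the U266/LR7 inhibitor array (-0.56, adjusted p = 0.0773).

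In all, 1 of 10 members was higher (SAT1) and 4 were lower in U266/LR7 without melphalan, where 34.7% of all genes were called, 16.9% higher and 17.8% lower. Without the U266/s control array 3 were called, namely SAT1, ODC1 and SMOX. OAZ1 (-0.07 ± 0.08), OAZ2 (-0.04 ± 0.16) and PAOX (0.05 ± 0.14) were not called. Under melphalan 2 were higher (AZIN1 and AMD1) and 4 lower, where 51.7% of all genes were called, 27.7% higher and 24% lower. Beside SAT1, ODC1 (-0.87 ± 0.17, adjusted p = 0.00115), SMOX (-0.77 ± 0.14, adjusted p = 0.000968) and SRM (-0.37 ± 0.10, adjusted p = 0.0109) were then lower in U266/LR7. The SRM call was lost with median centring (-0.24, adjusted p = 0.116) and without 3 of the 4 melphalan arrays, where it was -0.35 (U266/LR7 melphalan, adjusted p = 0.0819), -0.38 (U266/LR7 combination, adjusted p = 0.0635) and -0.25 (U266/s combination, adjusted p = 0.133). SMS was not called there (-0.35 ± 0.19, adjusted p = 0.136), but it was with quantile normalization (-0.58, adjusted p = 0.0226), with cyclic loess (-0.53, adjusted p = 0.037) and without the U266/s melphalan array (-0.68, adjusted p = 0.0191).

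**Figure D4:**
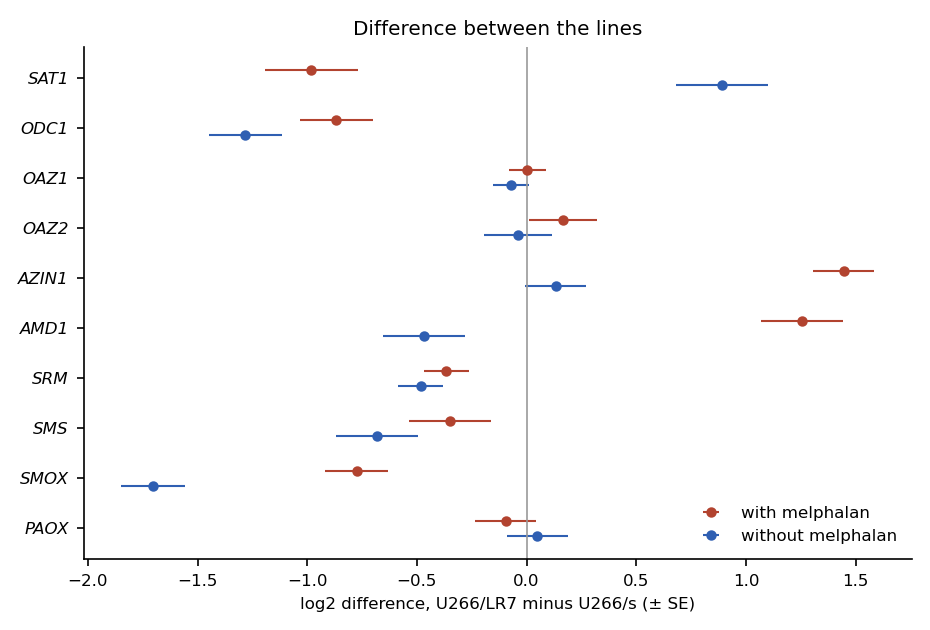
Log2 difference between U266/LR7 and U266/s (horizontal axis, points with SE) for the 10 genes, on the arrays with melphalan (red) and without it (blue). SAT1 lies at -0.98 with and 0.89 without melphalan, ODC1 and SMOX lie below 0 in both, and AZIN1 and AMD1 lie above 1 with melphalan, against 0.13 and -0.47 without.

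ODC1 and SRM are textbook targets of MYC, which binds the E-box CACGTG. MYC itself read 6.54 and 6.59 in U266/LR7 without melphalan, against 12.45 and 12.29 in U266/s (-5.81 ± 0.17, limma adjusted p = 1.74e-09). In U266/s it fell with melphalan (-2.47 ± 0.17, limma adjusted p = 3.06e-06), where ODC1 (0.22) and SRM (-0.01) were not called. The other synthesis genes, AMD1 (-1.60) and SMS (-0.57), were called lower there, though the SMS call rested on single arrays and on the scaling. The part of MYC in the values of ODC1, SRM, AMD1 and SMS was not tested. RefSeq start windows matched 7 of the 10 members, in 10 windows, and AZIN1, SMOX and PAOX were not among them. CACGTG occurred in 2 of the 10 member windows, in ODC1 and SRM, against 7.26% of all windows. For SRM the 250 bases upstream of the start (chr1:11060019-11060268, minus strand, GRCh38.p14) are shown, with the E-box and the CCAAT boxes (either strand) in capitals. For ODC1 the E-boxes lie by its second annotated start, at chr2:10448024-10448053 and chr2:10447990-10448019 (minus strand), and 30 bases around each are shown with the E-box in capitals. A match is a description of the letters and no evidence of binding in these cells.
SRM: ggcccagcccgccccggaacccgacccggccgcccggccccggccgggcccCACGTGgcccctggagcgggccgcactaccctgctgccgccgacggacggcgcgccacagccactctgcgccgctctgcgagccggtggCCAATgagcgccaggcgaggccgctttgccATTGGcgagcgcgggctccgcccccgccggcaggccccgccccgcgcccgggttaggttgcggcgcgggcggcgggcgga
ODC1, E-box at base -29 from its second start: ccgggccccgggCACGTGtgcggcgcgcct
ODC1, E-box at base 6 from that start: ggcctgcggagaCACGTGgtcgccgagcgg

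Beyond the 10 genes, 35 further genes of the pathway were analysed here. With melphalan in U266/LR7 2 rose and 2 fell, against 3.02% and 3.61% of all genes. In U266/s 4 rose and 12 fell, against 18.4% and 24.9% of all genes, and the median change was 0.15 in U266/LR7 and -0.15 in U266/s (0.05 and 0.08 over all genes). By limma the interaction was called positive for 11 and called negative for 0 of the 35, against 17.9% and 5.99% of all genes. Uncalled values lay on both sides of 0 (OAZ3, an antizyme paralog, stood at -0.44).

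Of 4 arginine and putrescine supply genes 0 rose and 2 fell in U266/s (18.4% and 24.9% of all genes), namely OAT (ornithine aminotransferase, -0.95 ± 0.17, adjusted p = 0.000833) and AGMAT (agmatinase, -0.75 ± 0.16, adjusted p = 0.00271). The AGMAT fall was -0.66 without the U266/s control (adjusted p = 0.0548) and -0.54 without the U266/s melphalan array (adjusted p = 0.0508). In U266/LR7 ARG2, the mitochondrial arginase that yields ornithine, rose by 0.58 ± 0.14 (adjusted p = 0.0294). Without the drug ARG2 was higher in U266/LR7 by 1.23 ± 0.14 (adjusted p = 2.9e-05) and AGMAT lower (-1.47 ± 0.16, adjusted p = 2.12e-05). The ARG2 line difference was called in 15 of 15 alternative settings. Its rise with melphalan in U266/LR7 was not called when any of 3 arrays of that line was left out, at 0.49 (control, adjusted p = 0.112), 0.51 (melphalan, adjusted p = 0.341) and 0.66 (combination, adjusted p = 0.165).

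Among 10 genes of S-adenosylmethionine supply and methylthioadenosine salvage, 2 rose and 5 fell in U266/s (18.4% and 24.9% of all genes). The largest falls were those of MTR (methionine synthase, -0.91 ± 0.14, adjusted p = 0.000416), MTAP (which salvages the by-product of spermidine and spermine synthesis, -0.89 ± 0.14, adjusted p = 0.000352) and ENOPH1 (a later salvage enzyme, -0.85 ± 0.15, adjusted p = 0.000887). In U266/LR7 MTR (-0.57 ± 0.14, adjusted p = 0.0399) and APIP (a salvage dehydratase, -0.56 ± 0.15, adjusted p = 0.0491) fell and 0 rose, against 3.61% and 3.02% of all genes. These calls held in 7 and 5 of 16 alternative settings. Without the drug MAT2B (1.01 ± 0.15, adjusted p = 0.000243) and MRI1 (0.80 ± 0.14, adjusted p = 0.000746) were higher in U266/LR7, and MTAP lower (-0.90 ± 0.14, adjusted p = 0.000322).

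Of 7 paralogs and regulators, 1 rose and 4 fell in U266/s (18.4% and 24.9% of all genes), and 0 were called in U266/LR7 (limma), where 6.62% of all genes were called. NFE2L2, which encodes NRF2, a factor known to drive SAT1 transcription, read 8.24 and 8.43 in U266/s with melphalan, against 10.50 and 10.21 without (-2.02 ± 0.18, adjusted p = 9.55e-06). SAT2, a SAT1 paralog, stood at -0.86 ± 0.20 (adjusted p = 0.00577) in U266/s, while SAT1 was higher there. Without the U266/s melphalan array the SAT2 fall was -0.44 (adjusted p = 0.0964), and without the U266/s control -0.75 (adjusted p = 0.0842). Without the drug NFE2L2 (-1.05 ± 0.18, adjusted p = 0.000655) and MAX, the partner of MYC (-0.94 ± 0.17, adjusted p = 0.0011), were lower in U266/LR7.

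Of 8 transport genes 0 rose and 1 fell in U266/s (18.4% and 24.9% of all genes), the vesicular polyamine transporter SLC18B1 (-0.996 ± 0.173, adjusted p = 0.00078). In U266/LR7 1 rose and 0 fell (3.02% and 3.61% of all genes). The riser was SLC3A2 (0.63 ± 0.14, adjusted p = 0.0226), the heavy chain of amino acid exchangers. The same 3 omissions ended the call of the SLC3A2 rise, at 0.43 (control, adjusted p = 0.0925), 0.57 (melphalan, adjusted p = 0.227) and 0.69 (combination, adjusted p = 0.122). ATP13A2, a lysosomal polyamine exporter, was lower in U266/LR7 without melphalan (-1.39 ± 0.15, adjusted p = 2.29e-05), and SLC47A1, an organic cation exporter, higher (1.19 ± 0.15, adjusted p = 7.31e-05). Hypusine, a spermidine-derived amino acid of the translation factor eIF5A, needs DHPS and DOHH. DOHH rose in U266/s (0.52 ± 0.16, adjusted p = 0.0222), a call lost with median centring (0.37, adjusted p = 0.1) and without the U266/s control (0.48, adjusted p = 0.163), inhibitor (0.57, adjusted p = 0.0714) or combination array (0.34, adjusted p = 0.206). EIF5A2 was higher in U266/LR7 without the drug (1.27 ± 0.23, adjusted p = 0.00123), by 0.75 without the U266/LR7 inhibitor array, and so was DHPS (0.53 ± 0.13, adjusted p = 0.00688, called in 13 of 16 alternative settings and lost without 3 single arrays, the lowest value being 0.39 without U266/LR7 inhibitors). The 3 breakdown genes HDAC10, AOC1 and ALDH9A1 were not called with melphalan in either line, where 6.62% (U266/LR7) and 43.4% (U266/s) of all genes were called.

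**Figure D5:**
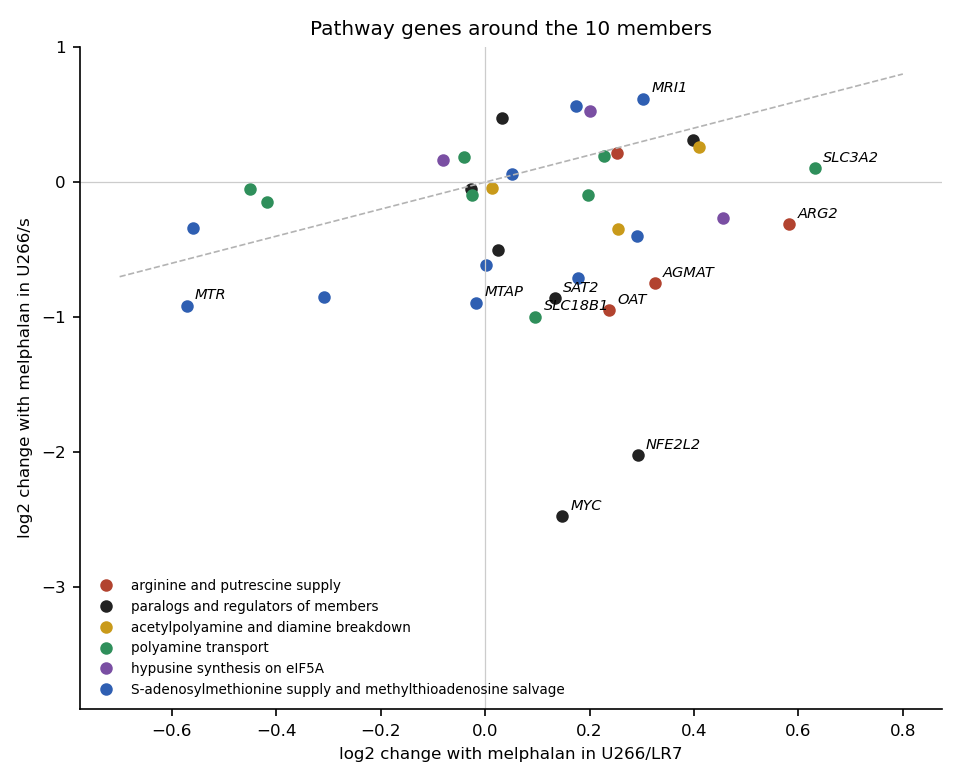
Log2 change with melphalan in U266/s (vertical axis) against that in U266/LR7 (horizontal axis) for the 35 pathway genes, coloured by list, with the dashed line marking equal changes. MYC (-2.47) and NFE2L2 (-2.02) lie lowest in U266/s, and OAT, AGMAT, SAT2, SLC18B1 and MTAP lie below the line.

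The inhibitors target miR-221 and miR-222, whose mature 3p strands share a seed. The labels do not name the strand, and the RefSeq sequences (GRCh38.p14, chrX:45746180-45746202 and chrX:45747036-45747056, minus strand) are shown with the seed, bases 2 to 8, in capitals.
hsa-miR-221-3p: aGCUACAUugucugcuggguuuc
hsa-miR-222-3p: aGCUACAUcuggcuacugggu
Over both lines and melphalan states (4 arrays with against 4 without), 0 of the 10 genes was called with the inhibitors by limma. Of all genes 0.0434% were called, 0.0271% higher and 0.0163% lower. An unadjusted limma p under 0.05 was found for 1161 of all 18417 genes and for 0 of the 10. The changes ran from -0.25 ± 0.13 for SMS (adjusted p = 0.823) to 0.14 ± 0.07 for SRM (adjusted p = 0.823). SAT1 changed by -0.12 ± 0.15 (95% interval -0.45 to 0.21). The inhibitor pairs with melphalan set transfected cells against cells tagged as not transfected. With transfection as 3 levels the change was -0.38 ± 0.19 for SAT1 (adjusted p = 0.937), -0.50 ± 0.17 for SMS (adjusted p = 0.676) and 0.04 ± 0.09 for SRM. The 4 matched inhibitor differences of SAT1 were 0.49 with and -0.22 without melphalan in U266/LR7, and -0.20 with and -0.55 without melphalan in U266/s, so they did not share a sign. An inhibitor effect within 1 line or drug state was not tested.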

How the data were processed

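RNA of 8 samples was measured on 1 one-colour Affymetrix array each. The authors' deposited values are log2 signals made with Affymetrix Expression Console and RMA, per the submitters' processing notes; the sources used here give no version, setting or build. Of 33297 transcript clusters, 19460 carry a single gene symbol in the platform annotation, 1754 several and 12083 none. Symbols were updated by gene ID (19429 matched), and the brightest cluster stood for each gene, leaving 18417 genes. Gene spans and sequences came from RefSeq tables (GRCh38.p14).

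Changes were fitted with limma 3.58.1 (R 4.3.3) on all 18417 genes and 8 arrays, with terms for line, melphalan, inhibitors and melphalan by line (3 residual degrees of freedom), trended empirical Bayes variances and Benjamini-Hochberg adjustment at 0.05. The fit was tested on simulated data with independent noise, where few of the genes were altered. That setting holds no inhibitor or transfection effect, so it cannot show how such effects bear on the calls here. Conditions have no replicates, and no label places the arrays in separate cultures. The 3 residual degrees of freedom are the inhibitor terms left out of the fit (with line, with melphalan and with both). The p-values thus rest on the scatter between arrays, possibly technical, together with any such inhibitor or transfection effect, and the number of arrays limits precision. The members and lists were chosen with earlier results of these data known. From each list the up to 3 called genes with the largest change per contrast were named, and the 5 genes nearest SAT1. Alternatives changed the normalization, the filter on dim genes, the variance trend, the design and the cluster rule, or left out 1 array; transfection as 3 levels was added after the data were seen.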

Additional observations from a re-analysis of the deposited data

Results flagged for a closer look

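The melphalan response differed between the lines, as tested by limma's interaction term (U266/LR7 minus U266/s, log2 units), for 4 of the 10 polyamine genes, where 23.9% of all genes were called. It was -1.87 for SAT1, 1.72 for AMD1, 1.31 for AZIN1 and 0.93 for SMOX. Among the named pathway genes it was 2.62 for MYC, 2.31 for NFE2L2, 1.19 for OAT, 1.09 for SLC18B1, 1.07 for AGMAT, 0.99 for SAT2, 0.89 for ARG2, 0.89 for MAT2B, 0.88 for MTAP and 0.69 for ADI1. Of these, MYC, NFE2L2, OAT and AGMAT were called in 16 of 16 alternative settings, SLC18B1 and MTAP in 15, MAT2B in 13, SAT2 in 10 and ADI1 in 8 of 16, and ARG2 in 14 of 15. No group held more than 1 array, so no array could be set against others of its own condition.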

How the results depend on the processing

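The labels give no replicate numbers, so no pairing beyond the conditions themselves was fitted. Arrays matched by condition are linked through the inhibitor term of the fit. The 4 interactions kept their sign and call in all 16 alternatives run (4 to 5 members called). In U266/LR7 the count of called members with melphalan was 0 with median centring, cyclic loess, no intensity trend or transfection as 3 levels, and 0 to 1 when 1 array was left out; ODC1 is the gene concerned. In U266/s it was 2 to 4 when 1 array was left out, and for the lines without melphalan 3 to 5. Inhibitors gave 0 called members in all 17 alternatives. Of the signs that turned (22 values), 0 were past the threshold in either fit. With median centring these were OAZ1 with melphalan in U266/s (-0.112) and PAOX between lines with melphalan (0.032). With quantile normalization they were OAZ1 with melphalan in U266/s (-0.136), PAOX between lines without melphalan (-0.0086) and OAZ2 between lines with it (-0.061). With cyclic loess they were SRM with melphalan in U266/s (0.0097) and, between lines with melphalan, OAZ1 (-0.036) and OAZ2 (-0.028). With transfection as 3 levels they were SMS in U266/LR7 (0.0094) and SRM in U266/s (0.082). When 1 array was left out, melphalan changes ran from -0.202 to 0.432 (AMD1, U266/LR7) and, in U266/s, from -0.0117 to 0.442 (ODC1), -0.0220 to 0.0940 (OAZ1) and -0.129 to 0.102 (SRM). Line differences ran from -0.213 to 0.133 (OAZ2) and -0.0174 to 0.113 (PAOX) without melphalan, and from -0.0405 to 0.0490 (OAZ1) with it. The SAT1 inhibitor change ran from -0.322 to 0.0267. Of the other single-gene values, 84 lost and 6 gained their call, 6 of SAT1 moved by over 1 SE and 1306 kept sign and side. Median centring, quantile and cyclic loess normalization moved the median change of all genes with melphalan in U266/s by -0.15, -0.10 and -0.16. The higher share of calls there was 23.6%, 37.5% and 29.9%, where the main fit had 3391 of 7984. The interaction median moved by 0.14, 0.10 and 0.13. Of the interaction calls 85.4%, 74.7% and 76.9% were positive, where the main fit had 3290 of 4394. Genes called with melphalan in U266/s numbered 7984, but 4258 without the U266/s control array; in U266/LR7 they numbered 1220, but 679 with transfection as 3 levels and 306 and 250 without its melphalan and combination arrays.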
